A study of Homo sapiens with 2 samples.

Results

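The genes described here belong to the ubiquitin system and were chosen by name from an RNA sequencing table of the cell line SBC5, which was established from a small cell lung cancer. Members were the table's gene names that begin with TRIM, HECW, HECTD, HERC, NEDD4, UBE2, UBE3, USP, OTUD, CUL, FBXO, FBXW or FBXL. Names of 5 antisense RNAs and 6 pseudogenes were left out, among them UBE2Q2L, which RefSeq now lists as a pseudogene, and 1 UBE2 name was left out by the rule. The 207 remaining names stood on 205 rows, and these 205 members were set against the 12494 names of the whole table. TRIM6 and TRIM6-TRIM34 shared a row, as did UBE2F and UBE2F-SCLY, so each pair counts as 1 member. A member was compared where it reached 1 FPKM in either library, which 203 did, and the other 2 were FBXO43 and USP6. FPKM, the unit of the table, is a fragment count divided by locus length and by the number of fragments mapped.

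The 2 groups were SBC5 cells resistant to cisplatin and the parental SBC5 cells they were derived from, with 1 library of polyadenylated RNA each. Cisplatin is a platinum drug that crosslinks DNA, and the resistant cells had been taken through 1, 2, 4 and 20 µg/ml of it. Both were kept in RPMI medium with serum. Whether the resistant cells are a single clone, and whether the drug was present at harvest, is not given in the sources used here. With 1 library per group no test was possible, and no difference below has a replicate check. Each difference is given as a log2 ratio, resistant over parental, with 1 FPKM added to both values, which understates the change of low genes, and a fixed limit of 2-fold (log2 ratio of 1 or -1) stands in for a test. In bulk RNA, fewer cells with a transcript and less of it in each cell cannot be told apart. Of 12 neuroendocrine and subtype markers of this cancer, 6 had a locus, with YAP1 at 84.7 FPKM in resistant and 76.6 FPKM in parental cells and UCHL1 at 259 FPKM in resistant and 251 FPKM in parental cells. SYP had 8.62 FPKM in resistant and 8.56 FPKM in parental cells, ENO2 9.40 FPKM in resistant and 8.18 FPKM in parental cells, and NCAM1 1.64 FPKM in resistant and 0.821 FPKM in parental cells. SCG2, a secretory granule protein, was far from even, at 20.1 FPKM in resistant and 109 FPKM in parental cells. The markers without a locus were not analysed here. None of the 6 blood and endothelial markers had a locus, and of 3 fibroblast markers only COL1A1 had one, at 3.85 FPKM in resistant and 2.34 FPKM in parental cells.

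Ubiquitin is joined to proteins by a relay. An activating enzyme hands it to a conjugating enzyme (E2, here the UBE2 names), and a ligase (E3) brings the E2 to its substrate. HECT ligases (HECW, HECTD, HERC, NEDD4 and UBE3 names) carry the ubiquitin on a catalytic cysteine before passing it on, and TRIM proteins are mostly RING ligases. Cullins (CUL) are scaffolds of multi-part ligases, for which F-box proteins (FBXO, FBXW, FBXL) choose substrates on CUL1. Deubiquitinases (USP, OTUD) take ubiquitin off again. Some names fit a prefix without the activity, such as USP6NL, a GTPase-activating protein, and USPL1, a protease for the related modifier SUMO.

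Promoter sequence is shown for some of the members past the 2-fold limit. TRIM6, TRIM9 and USP53, with lower log2 ratios than HECW1 and NEDD4, are not printed. RefSeq (GRCh38.p14) gave a promoter for 161 of the 205 members, including all 10 past the 2-fold limit. The 120 bases before the annotated start are printed for the 3 ligases of the HECW and NEDD4 families that were lower in resistant cells and for USP45 and TRIM36, the 2 members with the highest log2 ratios. Capitals mark CG pairs, the sites of DNA methylation, which was not measured here. Each is read on the gene's own strand.
HECW2 (chr2:196593555-196593674, minus strand): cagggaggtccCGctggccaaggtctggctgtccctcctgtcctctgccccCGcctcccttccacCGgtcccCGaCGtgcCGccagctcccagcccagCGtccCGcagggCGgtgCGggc
HECW1 (chr7:43112527-43112646, plus strand): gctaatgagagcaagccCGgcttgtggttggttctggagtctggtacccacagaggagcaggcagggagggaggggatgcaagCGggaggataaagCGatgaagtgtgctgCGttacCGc
NEDD4 (chr15:55917137-55917256, minus strand): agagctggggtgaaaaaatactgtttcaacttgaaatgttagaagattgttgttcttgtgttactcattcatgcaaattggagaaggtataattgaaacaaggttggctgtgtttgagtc
USP45 (chr6:99515424-99515543, minus strand): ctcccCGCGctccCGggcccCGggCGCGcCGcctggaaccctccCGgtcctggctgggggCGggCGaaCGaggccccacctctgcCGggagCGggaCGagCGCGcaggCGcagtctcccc
TRIM36 (chr5:115180295-115180414, minus strand): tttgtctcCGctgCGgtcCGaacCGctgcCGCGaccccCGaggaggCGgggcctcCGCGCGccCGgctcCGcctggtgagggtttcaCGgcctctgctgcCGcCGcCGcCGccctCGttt
The 3 lower ligases did not share a promoter type: the stretch of HECW2 held 10 CG pairs, that of HECW1 5 and that of NEDD4 none. Those of USP45 and TRIM36 held 17 and 19. The RefSeq starts of NEDD4 and USP45 lie well inside the GENCODE genes, and those of HECW2 and HECW1 also lie inside, by far less. Which start is used in SBC5 cells is not known from the table.

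The comparison asked which transcripts of this system differ between resistant and parental cells. Most did not pass the limit: 193 of 203 compared members lay within 2-fold, and 183 (90.1%) had a log2 ratio between -0.5 and 0.5, against 82.7% of all 12405 genes compared. At least 2-fold higher in resistant cells were 3 members (1.48%), USP45, TRIM36 and USP35, where the share over all genes was 3.28%. At least 2-fold lower were 7 members (3.45%), HECW2, TRIM6, TRIM9, USP53, HECW1, NEDD4 and TRIM2, where the share over all genes was 2.70%. The values of all 10 are given with their families. The share of higher members was below that of all genes and the share of lower members a little above it, on counts too small to read as a result about the members as a set. These shares over all genes, 3.28% higher and 2.70% lower, are to be set beside every count by family or list below, also where they are not repeated. Those counts are smaller still and are not read as results about a family or list. The median log2 ratio was -0.03 for the members and -0.04 for all genes. Both libraries were alike in the level of the members too, with a median of 14.8 FPKM in each.

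**Figure D1:**
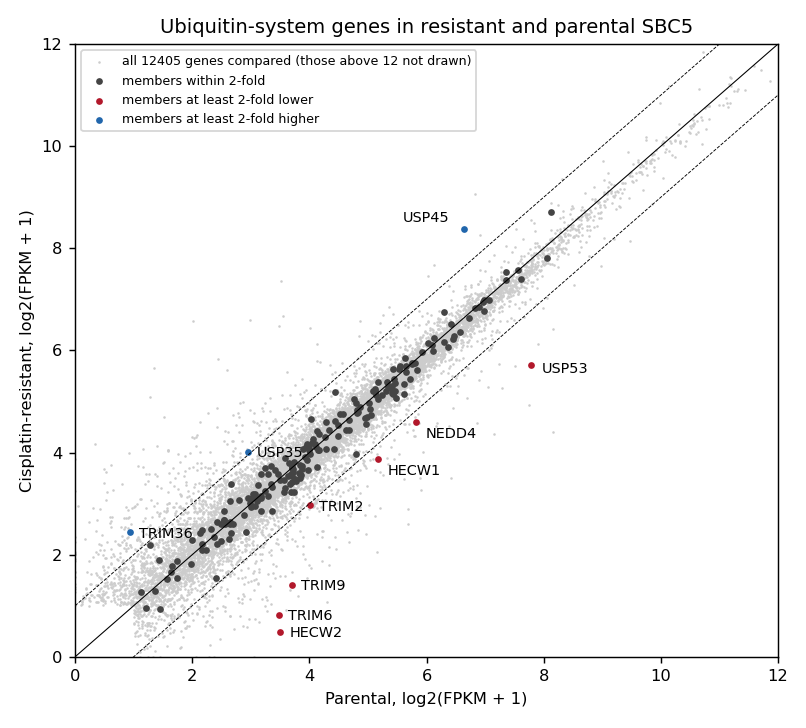
Level of each gene in the resistant (vertical axis) and parental library (horizontal axis), as log2(FPKM + 1), for all genes compared (grey) and the members (coloured), with dashed lines at 2-fold. 14 genes above 12 on either axis are not drawn. Of the members, 7 lie below the lower dashed line and 3 above the upper one.

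HECW2, a HECT ligase of the NEDD4 type, had the lowest log2 ratio of all members. It had 0.399 FPKM in resistant and 10.3 FPKM in parental cells, a log2 ratio of -3.02. HECW2 is a gene of chromosome 2, from 196189099 to 196593692 on the minus strand in GENCODE release 29. Its level in the resistant library lay under the 1 FPKM minimum, so the size of the ratio depends on the pseudocount: it was -4.38 with 0.1 FPKM and -1.50 with 5 FPKM. HECW1, its close relative on chromosome 7 (43112599 to 43566001, plus strand), had 13.7 FPKM in resistant and 35.1 FPKM in parental cells (-1.30). HECW1 had 2 further loci in the table, at 6.93 FPKM in resistant and 11.6 FPKM in parental cells and at 1.69 FPKM in resistant and 3.496 FPKM in parental cells, the second of them in the minus-strand part of the table. All 3 loci of HECW1 were lower in the resistant library, the further ones by less than 2-fold (-0.66 and -0.74).

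NEDD4, the founding ligase of this type, which marks membrane receptors and channels for uptake, had 23.2 FPKM in resistant and 55.7 FPKM in parental cells (-1.23). A small second locus of NEDD4 without an assigned strand had 2.33 FPKM in resistant and 2.67 FPKM in parental cells (-0.14). NEDD4L, known for limiting the epithelial sodium channel, had 15.9 FPKM in resistant and 20.5 FPKM in parental cells (-0.35), inside the limit. So 3 of the 4 HECW and NEDD4 members were at least 2-fold lower, where the share over all genes was 2.70%, but this group of 4 was put together with its values known and the count supports nothing. Values of related ligases whose names the rule does not catch are given beside it, with no test of a difference. ITCH had 18.1 FPKM in resistant and 16.9 FPKM in parental cells (0.10), and WWP1 had 10.8 FPKM in resistant and 9.79 FPKM in parental cells (0.13). WWP2 (-0.08), SMURF1 (-0.01) and SMURF2 (0.16) also lay within 0.2 of no change on the log2 scale. Across the 11 compared HECT ligases outside the rule, which include HUWE1 and TRIP12, the log2 ratio ran from -0.21 for HACE1 to 0.16 for SMURF2, with a median of -0.02.

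Other HECT families held few differences. HECTD2 had 14.8 FPKM in resistant and 26.9 FPKM in parental cells (-0.82), while HECTD3 and HECTD4 had log2 ratios of 0.26 and 0.31. UBE3A, the ligase lost in Angelman syndrome, had 25.5 FPKM in resistant and 32.03 FPKM in parental cells (-0.32). UBE3C, a ligase that works at the proteasome, was the most abundant of its family, at 122 FPKM in resistant and 124 FPKM in parental cells (-0.02). None of the 6 HERC members passed the limit. The giant ligase HERC2, which acts in the response to DNA breaks, had 36.0 FPKM in resistant and 32.9 FPKM in parental cells (0.12), and HERC1 had 13.5 FPKM in resistant and 14.5 FPKM in parental cells (-0.10).

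**Figure D2:**
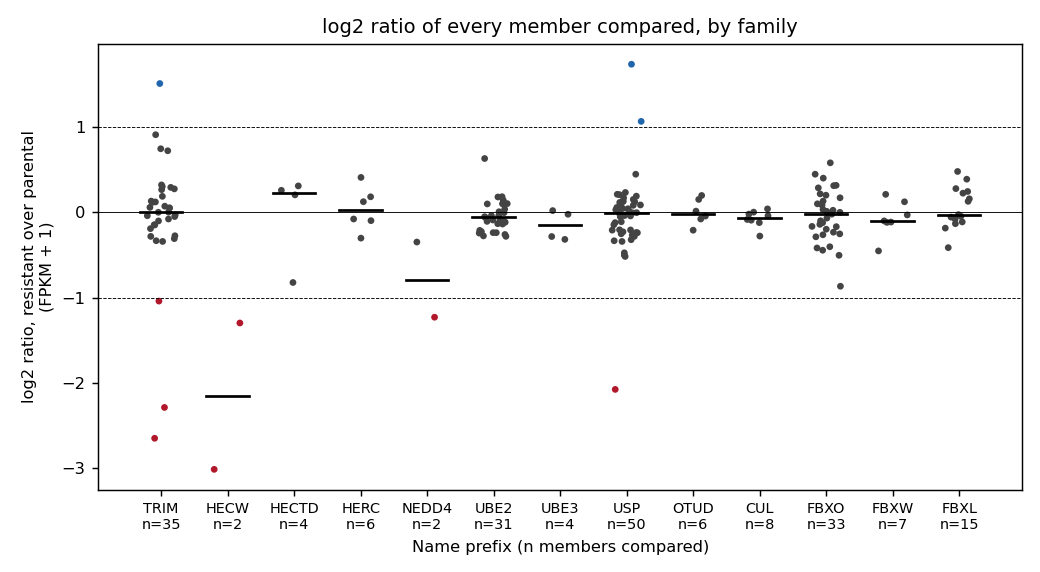
The log2 ratio (resistant over parental, FPKM + 1) of all 203 members compared, 1 point each, by name prefix, with black bars at the family medians and dashed lines at 2-fold. The HECW and NEDD4 medians, each over 2 members, lie at -2.16 and -0.79, while the other 11 family medians lie between -0.15 and 0.23.

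TRIM proteins gave differences both ways. All 35 TRIM members were compared, of 80 protein-coding TRIM names in GENCODE, and their median log2 ratio was 0.0018. With equal library sums that median was -0.08. TRIM6, a ligase of type I interferon signalling, had 0.771 FPKM in resistant and 10.1 FPKM in parental cells (-2.65), in a row it shares with the readthrough transcript TRIM6-TRIM34, so reads of either cannot be separated. TRIM9, a brain ligase that acts in netrin-guided axon growth, had 1.66 FPKM in resistant and 12.02 FPKM in parental cells (-2.29). TRIM2, which acts on neurofilament light chain in neurons, had 6.83 FPKM in resistant and 15.1 FPKM in parental cells (-1.04). These 3 were lower in the resistant library. TRIM36, a microtubule-associated ligase, stood on the other side, with 4.43 FPKM in resistant and 0.904 FPKM in parental cells (1.51). TRIM2 (-0.77) and TRIM36 (0.68) lay within 2-fold with a pseudocount of 5 FPKM, where TRIM6 had -1.39 and TRIM9 -1.35.

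TRIM9 and TRIM36 belong to one structural class, whose members carry a COS box that binds microtubules. Its other measured genes were TRIM46, at 2.54 FPKM in resistant and 2.93 FPKM in parental cells (-0.15), and MID1, at 59.7 FPKM in resistant and 42.4 FPKM in parental cells (0.49). The class therefore held 1 gene past the limit in each direction among 4, where the shares over all genes were 3.28% and 2.70%. Of the class with NHL repeats, TRIM2 was joined by TRIM32 (9.83 FPKM in resistant and 12.7 FPKM in parental cells, -0.33) and TRIM3 (3.91 FPKM in resistant and 2.98 FPKM in parental cells, 0.30). The bromodomain class of chromatin corepressors showed little difference. TRIM28, the corepressor of zinc finger proteins and the most abundant TRIM, had 188 FPKM in each library (0.0018). TRIM33 had 50.7 FPKM in resistant and 48.9 FPKM in parental cells (0.05), TRIM66 7.40 FPKM in resistant and 5.98 FPKM in parental cells (0.27), and TRIM24 8.35 FPKM in resistant and 10.8 FPKM in parental cells (-0.34). Just inside the limit on the high side were TRIM17 (3.59 FPKM in resistant and 1.44 FPKM in parental cells, 0.91), TRIM47 (35.5 FPKM in resistant and 20.8 FPKM in parental cells, 0.75) and TRIM56 (9.44 FPKM in resistant and 5.33 FPKM in parental cells, 0.72). TRIM17 had only a locus without an assigned strand.

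Deubiquitinases were the largest family, with 50 of 51 USP members compared. USP45, which removes ubiquitin from the repair nuclease subunit ERCC1, had 332 FPKM in resistant and 98.9 FPKM in parental cells. Its log2 ratio of 1.74 was the highest of all members and ranked 111 from the top among the 12405 genes. A second, small locus of USP45 without an assigned strand ran the other way, at 1.84 FPKM in resistant and 3.99 FPKM in parental cells (-0.82), and the summed loci gave 1.69. USP45 is a minus-strand gene of chromosome 6 (99432379 to 99521728). USP53, a tight junction protein of this family, was its counterpart among abundant members, with 51.2 FPKM in resistant and 219 FPKM in parental cells (-2.08). USP53 is a plus-strand gene of chromosome 4 (119212587 to 119295517). USP45 (1.70) and USP53 (-1.998) hardly moved with a pseudocount of 5 FPKM. USP35 had 15.2 FPKM in resistant and 6.72 FPKM in parental cells (1.07), and lay just inside the limit (0.99) with sums scaled to be equal and at 0.78 with a pseudocount of 5 FPKM. The other 47 compared USP members lay between -0.52 for USP50 and 0.45 for USP31.

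**Figure D3:**
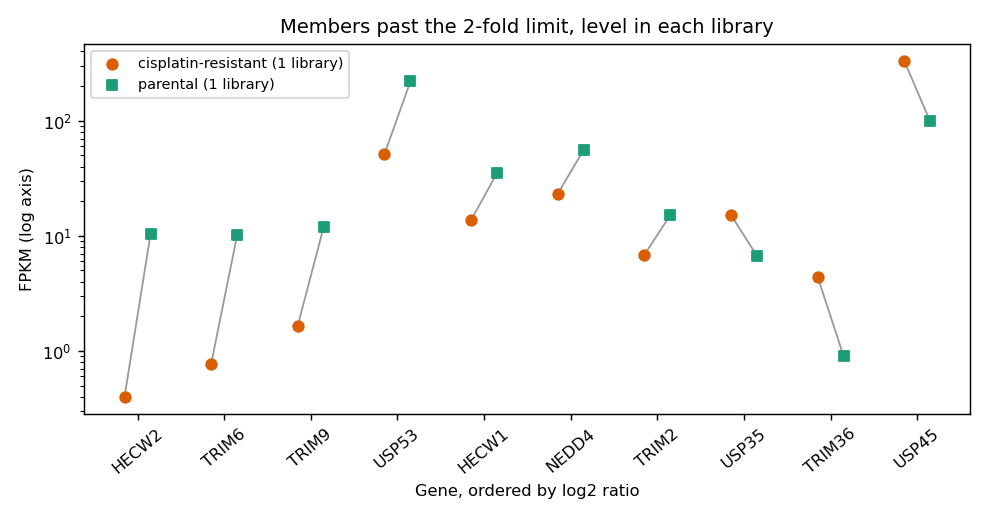
FPKM on a log axis for the 10 members past the 2-fold limit, with the resistant library as circles and the parental library as squares. USP53 and USP45 are the abundant members of the 10, while HECW2 and TRIM6 are under 1 FPKM in the resistant library and TRIM36 is under 1 FPKM in the parental library.

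Of OTUD deubiquitinases, 6 were compared and all lay between -0.21 (OTUD7B) and 0.20 (OTUD1), with OTUD6B the most abundant at 50.6 FPKM in resistant and 45.5 FPKM in parental cells. Among the 25 compared deubiquitinases of other families none passed the limit, with a median of 0.0033. The nearest to it was UCHL5, which works on the proteasome and in the INO80 complex, at 95.5 FPKM in resistant and 178 FPKM in parental cells (-0.90).

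Conjugating enzymes were abundant and near even. The 31 UBE2 members had a median of 37.7 FPKM in resistant and 42.4 FPKM in parental cells, and none passed the limit. UBE2G2, an E2 of degradation at the endoplasmic reticulum, had the highest mean level, at 225 FPKM in resistant and 266 FPKM in parental cells (-0.24). The member farthest from 0 was UBE2D1, an E2 that serves many ligases, at 24.2 FPKM in resistant and 15.3 FPKM in parental cells (0.63). Its relatives UBE2D2, UBE2D3 and UBE2D4 had log2 ratios of 0.10, -0.05 and -0.23. UBE2M, an E2 for the related modifier NEDD8, had 74.4 FPKM in resistant and 69.2 FPKM in parental cells (0.10). Upstream of them, the activating enzyme UBA1 had 230 FPKM in resistant and 259 FPKM in parental cells (-0.17). None of 9 compared ubiquitin and E1 genes passed the limit, with a median of -0.13.

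All 8 cullins were compared and none passed the limit. CUL1, the scaffold of F-box ligases, had 126 FPKM in resistant and 133 FPKM in parental cells (-0.08), and CUL3, the scaffold of BTB ligases, had 97.8 FPKM in resistant and 104 FPKM in parental cells (-0.09). The lowest log2 ratio was that of CUL4B, a scaffold of damage and replication ligases, at 24.99 FPKM in resistant and 30.5 FPKM in parental cells (-0.28), and its paralog CUL4A had 52.1 FPKM in resistant and 52.9 FPKM in parental cells (-0.02). CUL2 (-0.12), CUL5 (-0.04), CUL7 (0.0021) and CUL9 (0.04) were also near 0. The partners and regulators of cullins were alike: none of 29 compared genes passed the limit, with a median of -0.09. SKP1, the adaptor for F-box proteins, had 1186 FPKM in resistant and 1259 FPKM in parental cells (-0.09). Of 45 compared CUL3 and CUL4 adaptors, 1 was higher and 1 lower, where the shares over all genes were 3.28% and 2.70%. AMBRA1, a CUL4 receptor for D-type cyclins, had 23.4 FPKM in resistant and 10.6 FPKM in parental cells (1.08, and 0.99 with sums scaled to be equal). KLHL13, a CUL3 adaptor that acts on Aurora B in mitosis, had 11.7 FPKM in resistant and 28.3 FPKM in parental cells (-1.21, and -0.995 with a pseudocount of 5 FPKM).

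F-box proteins made up 56 members, 55 of them compared (33 FBXO, 7 FBXW and 15 FBXL), and none passed the limit. FBXW7, which takes cyclin E, MYC and JUN to CUL1, had 5.82 FPKM in resistant and 6.41 FPKM in parental cells (-0.12). FBXO4 had the lowest ratio, at 1.90 FPKM in resistant and 4.29 FPKM in parental cells (-0.87), and passed the limit with a pseudocount of 0.1 FPKM (-1.13). FBXO44 had the highest level of all members and the highest ratio of the F-box proteins, at 418 FPKM in resistant and 279 FPKM in parental cells (0.58). It lies on chromosome 1 beside FBXO2 and FBXO6, which with FBXO17 and FBXO27 form a group of F-box proteins several of which bind sugar chains of glycoproteins. FBXO2 had 106 FPKM in resistant and 77.6 FPKM in parental cells (0.45), and FBXO6 had 48.5 FPKM in resistant and 42.0 FPKM in parental cells (0.20). FBXO17 (0.22) and FBXO27 (0.32) share a site on chromosome 19. All 5 lay above 0, with a median of 0.32, and stayed within 2-fold. This group was formed after its values were seen.

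DNA damage genes were looked at because cisplatin crosslinks DNA. None of the 25 listed members passed the limit, and the list median was -0.02, with values from -0.28 (USP4) to 0.19 (USP1). Over all genes 3.28% were higher and 2.70% lower, so this count is too small to read as a result about the list. USP1, which removes ubiquitin from FANCD2 and PCNA, had 30.5 FPKM in resistant and 26.6 FPKM in parental cells (0.19). The RAD6 enzymes that mark PCNA were even, with UBE2A at 69.4 FPKM in resistant and 64.3 FPKM in parental cells (0.11) and UBE2B at 113 FPKM in resistant and 112 FPKM in parental cells (0.0065). UBE2N, which builds lysine-linked chains at breaks, had 34.4 FPKM in resistant and 41.9 FPKM in parental cells (-0.28). Its partners were UBE2V1 at 115 FPKM in resistant and 118 FPKM in parental cells (-0.04) and UBE2V2 at 42.5 FPKM in resistant and 51.8 FPKM in parental cells (-0.28). UBE2V1 shares its row with TMEM189. USP7, which stabilises MDM2 and p53, had 40.7 FPKM in resistant and 39.0 FPKM in parental cells (0.06). USP28 (-0.04), USP47 (-0.02), USP48 (-0.0042), USP51 (-0.03) and USP24 (0.13) were likewise near 0, as were USP3 (-0.24), USP10 (-0.15), USP11 (-0.24) and USP42 (0.03). The F-box helicase FBXO18 had -0.17 and FBXO31 -0.02. USP45, which acts on ERCC1, was not on this list, and the list was written with earlier results of these data known.

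Of 9 listed mitotic members 8 were compared, and none passed the limit. FBXO43, at 0.465 FPKM in resistant and 0.933 FPKM in parental cells, was under the minimum. UBE2C and UBE2S, the E2s of the anaphase-promoting complex, had 184 FPKM in resistant and 162 FPKM in parental cells (0.18) and 167 FPKM in resistant and 194 FPKM in parental cells (-0.21). FBXO5, an inhibitor of that complex, had 19.1 FPKM in resistant and 21.6 FPKM in parental cells (-0.17). USP44, a deubiquitinase of the spindle checkpoint, had 6.22 FPKM in resistant and 9.23 FPKM in parental cells (-0.50). USP9X (0.02), USP16 (0.21) and USP37 (0.21) were closer to 0. The complex itself had 0 of 16 genes past the limit and a median of -0.16. In the list of 48 compared RING and RBR ligases, which holds MDM2 and BRCA1, only CBLB passed it. Over all genes 3.28% were higher and 2.70% lower. CBLB, which restrains receptor signalling, had 4.195 FPKM in resistant and 0.383 FPKM in parental cells (1.91) in a locus without an assigned strand, and 2.56 FPKM in resistant and 1.21 FPKM in parental cells (0.69) in its strand-assigned locus.

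The members that conjugate ISG15, an interferon-induced modifier, or are known interferon targets were within the limit. Of 14 listed, 9 were compared, with a median of -0.03. UBE2L6, the E2 for ISG15, had 7.89 FPKM in resistant and 8.78 FPKM in parental cells (-0.14). HERC5, its ligase, had 10.8 FPKM in resistant and 13.5 FPKM in parental cells (-0.30), while its chromosomal neighbour HERC6 had 10.9 FPKM in resistant and 7.97 FPKM in parental cells (0.41). USP18, the protease that removes ISG15, had 16.3 FPKM in resistant and 14.4 FPKM in parental cells (0.17). TRIM25 (-0.04), TRIM5 (-0.03), TRIM14 (-0.28) and TRIM21 (0.29) were nearer 0 than TRIM56 (0.72). TRIM22, TRIM34, TRIM38, TRIM69 and USP41 were not analysed here.

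Sequence letters of the interferon response element were searched for in the 250 bases before each start, as GAAA, any 2 bases and GAAA on both strands. Of the 161 members with a promoter, 6 held a match (3.73%), against 1.95% of the 9121 promoters of compared genes and 3.07% of all 27305 promoters. The members of the interferon list with a match were HERC5, TRIM14 and TRIM5, whose stretches are printed with the match in capitals.
HERC5 (chr4:88456992-88457056, plus strand): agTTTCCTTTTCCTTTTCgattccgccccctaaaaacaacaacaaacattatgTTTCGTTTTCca
TRIM14 (chr9:98119223-98119282, minus strand): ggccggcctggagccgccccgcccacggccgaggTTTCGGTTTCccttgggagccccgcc
TRIM5 (chr11:5685075-5685134, minus strand): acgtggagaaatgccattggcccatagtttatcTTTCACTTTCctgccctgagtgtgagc
The RefSeq start of TRIM5 lies far inside its GENCODE gene, and which start is used in SBC5 cells is not known. HERC5 held 3 matches, of which a pair overlap, and also CACGTG nearer its start. The other 3 members with a match were TRIM2, TRIM16 and TRIM44. TRIM2 was the only one of the 10 members past the limit to hold any of the 4 motifs searched. TGACGTCA, the cyclic AMP element, was in 1.86% of member promoters, 2.86% of those of compared genes and 1.77% of all. CACGTG, the E-box, was in 7.45% of member promoters, 8.99% of those of compared genes and 6.49% of all. TGACTCA, the AP-1 element, was in 0.621% of member promoters, 2.25% of those of compared genes and 4.16% of all. For the cyclic AMP element and the E-box the member share was thus above that of all promoters and below that of compared genes. All motifs were read on both strands, and a match is only a match of letters.

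Neither promoter composition nor gene size was uniform among the 10 members past the limit. In the 250 bases before the start, GC content ran from 36.0% (NEDD4) to 71.6% (USP45), with a median of 69.8%, against 68.6% for the members within the limit and 65.6% for the promoters of all compared genes. The 7 lower members had a median gene length of 167 kb, from 16.9 kb (TRIM6) to 453 kb (HECW1), against 49.5 kb for the members within the limit and 32.8 kb for all compared genes. The 3 higher members had a median of 55.8 kb.

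Most genes beside the 10 members lay within the limit. For each, the 5 nearest compared genes on either side were taken. None of the 10 neighbours of HECW2, of NEDD4 or of TRIM2 passed the limit, and the median log2 ratio of the neighbours of HECW2 was 0.11. The HECW1 neighbours had a median of -0.27 and 1 of 10 past the limit, INHBA-AS1, listed at 0 in resistant cells and at 1.15 FPKM in parental cells. For TRIM6, in a cluster of TRIM genes on chromosome 11, TRIM5 had 7.47 FPKM in resistant and 7.66 FPKM in parental cells, TRIM21 4.38 FPKM in resistant and 3.39 FPKM in parental cells and TRIM68 3.65 FPKM in resistant and 3.46 FPKM in parental cells. TRIM6 alone of these TRIM genes passed the limit. Only TRIM5 lies close to TRIM6, with 67.4 kb between the lower GENCODE coordinates of these genes. TRIM5 is on the minus strand, so this is not the distance between their starts. TRIM21 and TRIM68 lie much farther off. TRIM22 and TRIM34 were not analysed here, so the contrast among close genes rests on TRIM5. Of the other neighbours of TRIM6, the globin gene HBB had 0.472 FPKM in resistant and 2.69 FPKM in parental cells (-1.32), and the olfactory receptor gene OR51B5 had 0.121 FPKM in resistant and 1.34 FPKM in parental cells (-1.06), both in the direction of TRIM6. FAM160A2 ran the other way, at 11.2 FPKM in resistant and 3.74 FPKM in parental cells (1.36). USP53 had 1 neighbour past the limit in each direction, NDNF at 0.810 FPKM in resistant and 3.24 FPKM in parental cells (-1.23) and SYNPO2 at 5.62 FPKM in resistant and 1.48 FPKM in parental cells (1.42). Next to USP35, the adaptor gene GAB2 had 3.39 FPKM in resistant and 0.866 FPKM in parental cells (1.23), the same direction as USP35. The neighbours past the limit of TRIM36 (MCC, -1.64) and USP45 (PRDM13, -1.11) were lower where those members were higher. ATL1, among the 10 neighbours of TRIM9 but not the nearest, had 2.14 FPKM in resistant cells and was listed at 0 in parental cells. Its log2 ratio was 1.65, higher where TRIM9 was lower.

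**Figure D4:**
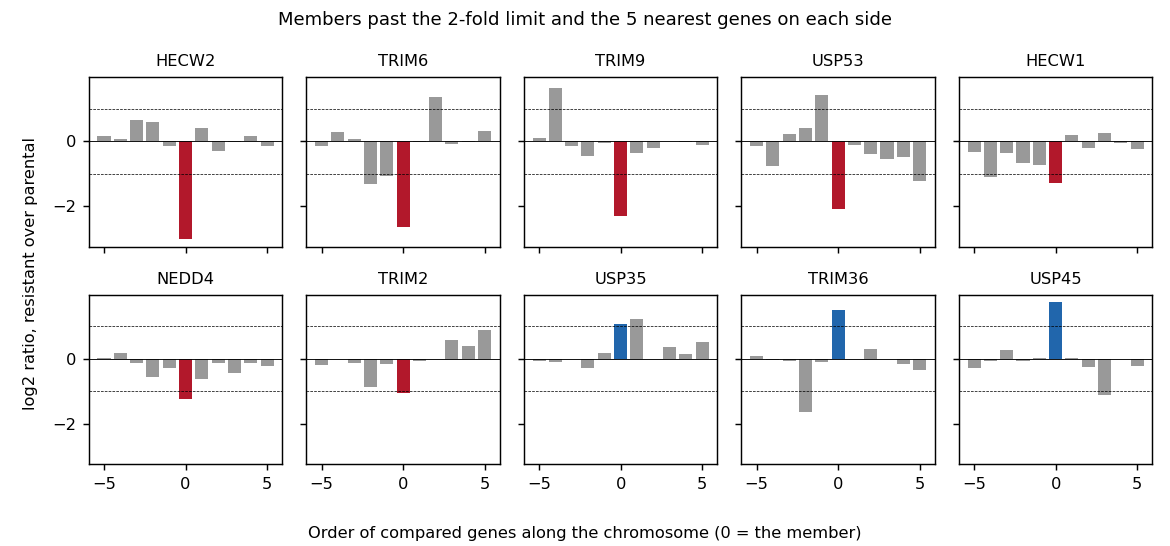
The log2 ratio (resistant over parental, FPKM + 1) of the 10 members past the limit (coloured, at 0) and of the 5 nearest compared genes on each side (grey), in order along the chromosome, with dashed lines at 2-fold. Around HECW2, NEDD4 and TRIM2 no neighbour crosses a dashed line.

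The 10 differences were recomputed under other settings. With a pseudocount of 5 FPKM 7 of the 10 stayed past the limit, and TRIM2, TRIM36 and USP35 did not. Scaling both libraries to an equal sum moved USP35 alone inside it, and none of the 10 changed direction in any of the settings shown.

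**Figure D5:**
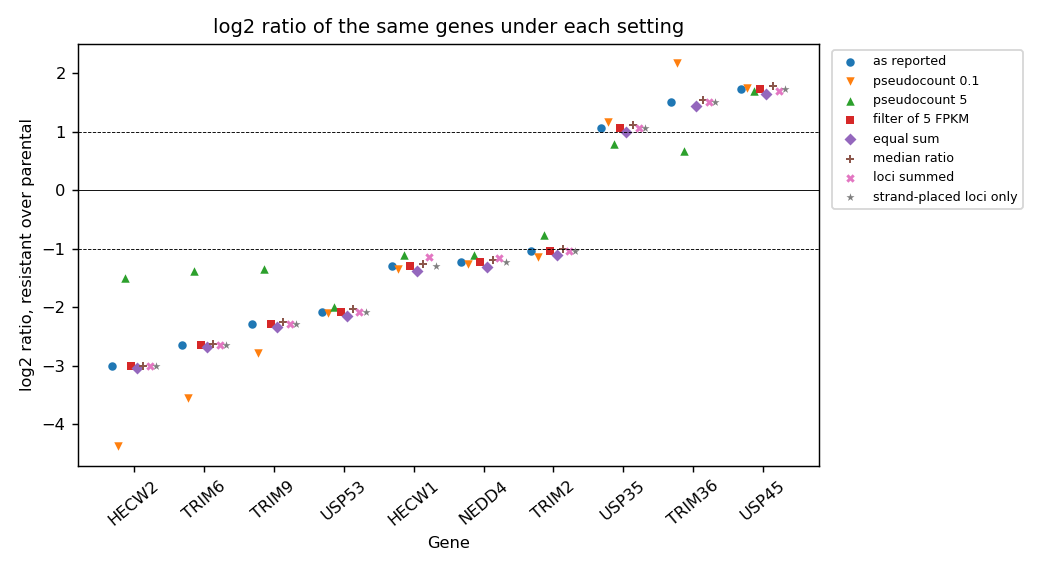
The log2 ratio of the 10 members past the limit under 8 settings, 1 marker per setting, with dashed lines at 2-fold. HECW2, TRIM6, TRIM36 and TRIM9 spread most, from -4.38 to -1.50 for HECW2, while USP53 and USP45 stay close together. TRIM36 has no marker for the filter of 5 FPKM, which it does not reach.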

How the data were processed

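Polyadenylated RNA of 1 cisplatin-resistant and 1 parental SBC5 library was compared. The deposited table gives FPKM per locus, made by the authors, per the file headers. TopHat2 (no version given) and hg38 are named per the submitters' processing notes, but what program and gene models gave the FPKM is not stated in the sources used here. The table holds no counts, so the depth behind a value is unknown. Of 19217 loci, 2919 without a name and 23 named by a date were left out, and 0 columns were unmatched. The sum of values was the higher in the resistant library, and a factor of 0.943 on it made the sums equal.

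Where a name had several loci, that of highest mean FPKM was taken. Loci were placed on a strand by their order in the table, with the breaks chosen partly by the annotated strand. Of 11750 annotated loci so placed, 98.7% lay on their annotated strand, which is therefore no independent check. Only 2 compared members rested on a locus without an assigned strand. Genes at 1 FPKM or more in either library were compared with a pseudocount of 1. Positions are GENCODE release 29, for 204 members. Named genes were HECW2, members past 2-fold, the most abundant of each family, members of the interferon, DNA damage, mitotic and cullin lists, and genes past 2-fold of other pathway lists. Further genes were chosen after their values were seen, and some genes are not reported here. Members and lists were chosen with earlier results of these data known. Alternatives were other pseudocounts, filters, scalings, summed loci, strand-placed loci and a 4-fold limit. Python 3.11.15, pandas 2.3.3, NumPy 2.4.6 and matplotlib 3.10.9 were used.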

Additional observations from a re-analysis of the deposited data

How the results depend on the processing

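No paired analysis was possible because each group has 1 library, and no library could be left out. The count of members at least 2-fold higher, 3 as reported, was 1 with a pseudocount of 5 FPKM and 0 with a 4-fold limit, and between 2 and 4 in the other settings. The count at least 2-fold lower, 7 as reported, was 4 with a 4-fold limit (HECW2, TRIM6, TRIM9 and USP53) and between 6 and 8 otherwise. The member median was -0.11 with sums scaled to be equal, where the median of all genes was -0.12, and 0.0033 with the resistant library divided by the median ratio. With a pseudocount of 0.1 FPKM the limit was also passed by FBXO4 (-1.13) and TRIM17 (1.26). Over all genes, 614 were then higher and 478 lower, against 142 and 136 with a pseudocount of 5 FPKM. That pseudocount also brought AMBRA1 (0.87), CBLB (0.77) and KLHL13 (-0.995) inside the limit. Scaling to an equal sum moved the medians of all 34 families and lists by 0.05 or more. The factor of 0.943 on the resistant library lowers nearly every log2 ratio together. That shift was therefore built in and says nothing about any family or list. The number of fragments is unknown, so values near 1 FPKM, HECW2, TRIM6 and TRIM36 among them, have an unknown counting error.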

Other observations

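The table held several loci for 35 members, and these did not always move together. All loci of a name lay on the same side of 0 for 18 of the 35. TRIM11 had 5 loci, all above 0 in the log2 ratio of resistant over parental, from 0.23 to 1.22, and TRIM56 had 3, from 0.72 to 0.93. FBXL16, an F-box protein, had 10, of which 9 lay above 0: its main locus had 17.1 FPKM in resistant and 14.5 FPKM in parental cells (0.22), and its highest ratio was 1.05. All 3 loci of HECTD4 were above 0 (0.31 to 0.97) and all 3 of HECW1 below. With loci of a name summed, the median of the FBXL family was 0.09, where it was -0.03 as reported, and FBXO31 had 0.29, where it was -0.02 as reported. These are descriptions of loci within the same 2 libraries, which share their reads' source and are no replicates.

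The 5 antisense and 6 pseudogene names left out of the members lay within 2-fold. UBE2Q2L had 3.48 FPKM in resistant and 6.55 FPKM in parental cells (-0.75), while UBE2Q2 itself had 26.8 FPKM in resistant and 27.5 FPKM in parental cells (-0.04). USP27X-AS1 had 4.27 FPKM in resistant and 7.14 FPKM in parental cells (-0.63), and USP27X had 6.19 FPKM in resistant and 7.99 FPKM in parental cells (-0.32). TRIM47 (0.75) and TRIM65 (-0.27), whose lower GENCODE coordinates lie 6.17 kb apart on chromosome 17, differed in direction.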
